A study of Homo sapiens with 10 samples.

Results

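The HER2 binding sites found after vehicle treatment in SKBR3 and BT474 cells were compared. They numbered 11155 peaks, 2596 in SKBR3 and 8559 in BT474, out of 43001 peaks in the 4 HER2 lists of the series. A SKBR3 peak that overlapped a BT474 peak by at least 1 bp was called shared, and all others were called SKBR3 only or BT474 only. By this rule 427 SKBR3 peaks were shared, 2169 were SKBR3 only and 8132 were BT474 only.

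SKBR3 and BT474 are established human lines derived from breast cancers, and both carry extra copies of ERBB2, the gene that encodes HER2. Asynchronous cells were kept for 3 hours with vehicle, which was water, or with 100 ng/ml of epidermal growth factor (EGF), and serum was not withdrawn. HER2 was mapped by ChIP-exo, in which an exonuclease trims the immunoprecipitated DNA before sequencing, with 1 library per condition. For H3K4me1, a histone mark of enhancers, there were 2 ChIP-seq replicates per line. The labels call those cells asynchronous, whereas the study describes them as EGF-treated. There was no replicate of HER2 in any condition, so no test compares the lines, and the intervals given are 95% Wilson intervals that cover counting error only. The lists hold no read counts, so the depth behind the HER2 peaks is unknown. The labels also list different lots of the HER2 antibody for SKBR3 and BT474, and the lines were grown in different media. Cell line, antibody lot, medium and library cannot be told apart in any comparison below. The score of a peak has no stated scale and was used only as a percentile within its own list.

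HER2, the product of ERBB2, sits in the plasma membrane beside EGFR, ERBB3 and ERBB4, and growth factors such as EGF and the neuregulins act on it through these partners. Kinase cascades that start at the paired receptors drive growth and survival of the cell. A pool of HER2 is also found in the nucleus. It has no known DNA-binding domain of the kind carried by transcription factors, and a HER2 peak marks DNA recovered with the antibody, whether HER2 touched it or came with other proteins.

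Some short sequences differed in frequency between the site classes. Most peaks of each line, 1922 of the 2596 in SKBR3 and 7094 of the 8559 in BT474, held neither of those described next. The study names a core written here as CGTNTGC, and it was counted on either strand up to 50 bp from the midpoint of each peak. The reference around the first 2 shared sites with the core, ranked by mean score percentile over both lists, is shown together with the highest-scoring core site of each line alone. All stretches are of the GRCh37 plus strand, with 50 bases to each side of the midpoint, and sites on 1 chromosome were not considered for display. The capitals mark the core, which reads GCANACG where it matches on the other strand. The shared sites lie at chr10:9602553-9602653, 161 kb from the pseudogene HSP90AB7P, and at chr7:22657980-22658080 in an intron of STEAP1B. The SKBR3 only site is at chr3:21756001-21756101 in an intron of ZNF385D. The BT474 only site is at chr11:100542859-100542959, 5.22 kb from the pseudogene PPIAP43.
HSP90AB7P, shared: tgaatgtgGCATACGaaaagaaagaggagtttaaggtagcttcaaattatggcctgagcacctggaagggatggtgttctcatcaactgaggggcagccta
STEAP1B, shared: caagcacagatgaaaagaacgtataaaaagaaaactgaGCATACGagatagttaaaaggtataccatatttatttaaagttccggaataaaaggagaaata
ZNF385D, SKBR3 only: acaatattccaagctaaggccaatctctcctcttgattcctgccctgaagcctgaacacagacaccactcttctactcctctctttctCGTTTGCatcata
PPIAP43, BT474 only: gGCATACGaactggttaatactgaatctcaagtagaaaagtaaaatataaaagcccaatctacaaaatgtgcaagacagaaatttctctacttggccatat

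A different sequence was common at SKBR3 peaks. Runs of alternating G and A, written here as GAGAGAGA on either strand (TCTCTCTC on the other), are shown at the first such shared site and the first 2 such SKBR3 only sites by score. The capitals mark alternating runs of at least 8 bases. The shared site at chr10:98561290-98561390 lies 27.1 kb from MIR607. The SKBR3 only sites are at chr7:130557442-130557542 in an intron of LINC00513 and at chr20:54730827-54730927, 49.2 kb from RNA5SP487.
MIR607, shared: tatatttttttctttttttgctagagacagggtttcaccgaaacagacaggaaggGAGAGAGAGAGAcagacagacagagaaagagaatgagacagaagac
LINC00513, SKBR3 only: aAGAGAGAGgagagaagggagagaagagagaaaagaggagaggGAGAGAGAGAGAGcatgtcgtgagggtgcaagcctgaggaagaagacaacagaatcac
RNA5SP487, SKBR3 only: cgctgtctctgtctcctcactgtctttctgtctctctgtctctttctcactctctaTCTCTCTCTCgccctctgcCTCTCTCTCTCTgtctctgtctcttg

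The vehicle peak lists of the lines held largely separate sites. Of the SKBR3 vehicle peaks, 16.4% (15.1 to 17.9%) overlapped a BT474 vehicle peak, and of the BT474 peaks 4.99% (4.55 to 5.47%) overlapped a SKBR3 peak. The shares differ because the BT474 list is longer. In each line 1 peak overlapped more than 1 peak of the other. With the BT474 list limited to its 2596 highest scores, the shares were 9.71% of SKBR3 peaks and 9.67% of those BT474 peaks. In SKBR3, recovery between lists of the same line was low too. The SKBR3 EGF list held 245 of the 427 shared and 93 of the 2169 SKBR3 only sites. The BT474 EGF list held 695 of the SKBR3 only sites. Absence from a vehicle list is therefore not shown to be absence of HER2 from that line.

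Where the lines did share a site, the peaks lay nearly on top of each other. The median overlap was 207 bp, against median peak widths of 215 bp in SKBR3 and 241 bp in BT474. A median of 97.6% of the SKBR3 peak was covered. The midpoints were a median of 28 bp apart, and 327 of the 427 pairs (76.6%) had midpoints within 50 bp of each other.

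Sites with high scores were shared more often in each list. In BT474 the shared fraction was 1.81%, 2.45%, 3.5%, 6.13% and 11% from the lowest to the highest quintile of score. In SKBR3 it was 13.8%, 13.5%, 13.3%, 18.3% and 23.3%. It rose at every step in BT474, whereas in SKBR3 the lowest 3 quintiles were alike. Of the 10 peaks with the highest score, 5 in SKBR3 and 6 in BT474 were shared. The median score percentile of the shared sites was 60.0 (53.5 to 65.6) in SKBR3, against 48.2 (46.6 to 50.6) for the SKBR3 only sites. In BT474 it was 76.7 (72.7 to 79.0) for the shared and 48.9 (47.4 to 49.9) for the BT474 only sites. The score percentiles of the lines were weakly related across the 427 shared sites, with a Spearman rho of 0.210, and 71 sites were in the highest quintile of both lists.

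**Figure D1:**
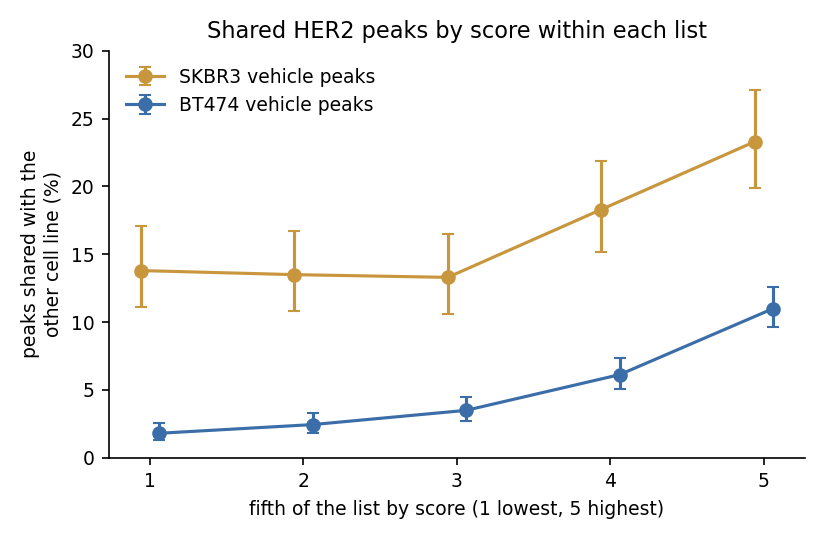
Percent of HER2 vehicle peaks shared with the other cell line (vertical axis) by quintile of score within each list (horizontal axis, 1 lowest, 5 highest), with 95% Wilson intervals. The BT474 shares climb from 1.81% to 11% and the SKBR3 shares from 13.8% to 23.3%, with the SKBR3 rise in the upper 2 quintiles.

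The 10 shared sites ranked highest by mean percentile were in or near genes of varied function. The first was in an intron of MAN1A1, which encodes a Golgi mannosidase that trims N-linked glycans. Its peak had the highest score of the SKBR3 list, 1962, and its BT474 peak scored 2219. The second was the site near MIR607, with scores of 458 in SKBR3 and 1303 in BT474. The third lay on the short arm of chromosome 21, 1.44 kb from the pseudogene ENSG00000278106, in sequence with close copies elsewhere, so its placement is uncertain. Others were in introns of CPLANE1, a ciliary gene, SPATA16, a gene of sperm development, EHBP1, which acts in endocytic trafficking, the amino acid transporter SLC7A13, and STEAP1B. The site in a coding exon of RELA, the p65 subunit of NF-kappa-B, scored 99.5 in SKBR3 (percentile 99.0) and 1062 in BT474 (percentile 99.9). All 10 sites were also present in both EGF lists.

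The highest sites of a single line had few features in common. In SKBR3 alone the highest score, 1597, was at chr1:156107511-156107714 in an untranslated exon of LMNA, which encodes the nuclear lamins A and C, and this site was in neither EGF list. The next were a pair of peaks 3.75 and 4.86 kb from ZCCHC24, with scores of 210.5 and 138, an intronic peak of LRMDA with a score of 202, and a peak 7.69 kb from CTCFL, a paralogue of CTCF normally active in testis, with a score of 134. Unlike the LMNA site, these were found after EGF. Both ZCCHC24 peaks were in the BT474 EGF list, the LRMDA peak in both EGF lists and the CTCFL peak in that of SKBR3. In BT474 alone, 3 of the highest 5 lay within 8.04 kb of CDC27P1, with scores of 3412, 1144 and 726. The others were 0.443 kb from MIR3648 on chromosome 21 (score 1391) and 6.55 kb from ENSG00000291030 (score 680.0). CDC27P1 is a pseudogene and MIR3648 lies in repeated sequence, so short reads there may belong to other copies.

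The core was at a minority of shared and BT474 only sites, and was rarer still at SKBR3 only sites. It was present at 51 of the 427 shared sites (11.9%, 9.20 to 15.4%) and at 958 BT474 only sites (11.8%, 11.1 to 12.5%). At SKBR3 only sites it was present at 39 (1.80%, 1.32 to 2.45%). The shared sites were centred here on their SKBR3 peaks. Centred on their BT474 peaks, as the BT474 only sites were, 72 of 427 held the core (16.9%, 13.6 to 20.7%), above the BT474 only share. Windows of the same length centred 1 kb to either side held it in 0.820%, 1.08% and 0.853% of cases. The share at SKBR3 only sites was above that of its windows, whose interval of 0.619 to 1.17% was separate. The interval of the SKBR3 only sites did not reach those of the other classes. The same split held in every score quintile of SKBR3, where 10.1 to 13.7% of shared and 0.472 to 3.34% of SKBR3 only peaks held the core. In BT474, 25.8%, 4.76%, 15.0%, 22.9% and 15.3% of shared peaks held it, from the lowest to the highest quintile. For BT474 only peaks these shares were 9.64%, 10.7%, 10.9%, 13.1% and 14.9%. The excess of shared over BT474 only peaks was thus absent from the second quintile and slight in the highest. The median GC content of these stretches was 43.6% at shared and SKBR3 only sites and 39.6% at BT474 only sites.

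An 8-base form of the core differed further in frequency between SKBR3 only sites and the other classes. GCATACGA, on either strand, was at 29 shared sites (6.79%) and 455 BT474 only sites (5.6%), but at 3 SKBR3 only sites (0.138%). It was in 0 of the 854 windows beside the shared sites, whose upper bound is 0.448%, and in 0.0307% of the windows beside BT474 only sites. Put the other way, 29 of the 32 SKBR3 peaks with this word (90.6%, 75.8 to 96.8%) were shared, and all 32 were in the BT474 EGF list. Of the 90 SKBR3 peaks with the 7-base core, 51 were shared (56.7%, 46.4 to 66.4%). The same letters occur in the P7 adapter of Illumina libraries, and the part of the adapter in these peaks was not tested.

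GA repeats showed the opposite pattern. GAGAGAGA was at 516 SKBR3 only sites (23.8%, 22 to 25.6%) and 74 shared sites (17.3%, 14.0 to 21.2%), but at 390 BT474 only sites (4.80%, 4.35 to 5.28%). The windows 1 kb away held it in 1.5%, 1.52% and 1.34% of cases, so all 3 classes were above their surroundings. Longer tracts of purines or pyrimidines, of at least 20 bases, were at 15.6% of SKBR3 only, 8.67% of shared and 3.75% of BT474 only sites, against 2.24%, 1.64% and 2.24% of windows. In SKBR3 the GA repeat was more frequent among weak peaks, with 27.7% in the lowest and 19.3% in the highest score quintile. In BT474 it stayed between 4.61% and 5.72% in every quintile. The core and the repeat occurred together at 6 SKBR3 and 27 BT474 peaks.

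The GA repeat went with more frequent sharing in BT474 but not in SKBR3. Of the 462 BT474 peaks with GAGAGAGA, 72 (15.6%, 12.6 to 19.2%) overlapped a SKBR3 vehicle peak, against 6.99% of the 1030 peaks with the core and 4.03% of the 7094 peaks with neither. Of the 590 SKBR3 peaks with the repeat, 74 (12.5%, 10.1 to 15.5%) were shared. This compares with 15.9% (14.3 to 17.6%) of those with neither word, and the intervals overlap. In the EGF lists, the repeat was at 12.5% of SKBR3 and 9.35% of BT474 peaks. The 8-base words were chosen after the most frequent words of each class had been seen, so these shares are descriptions.

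**Figure D2:**
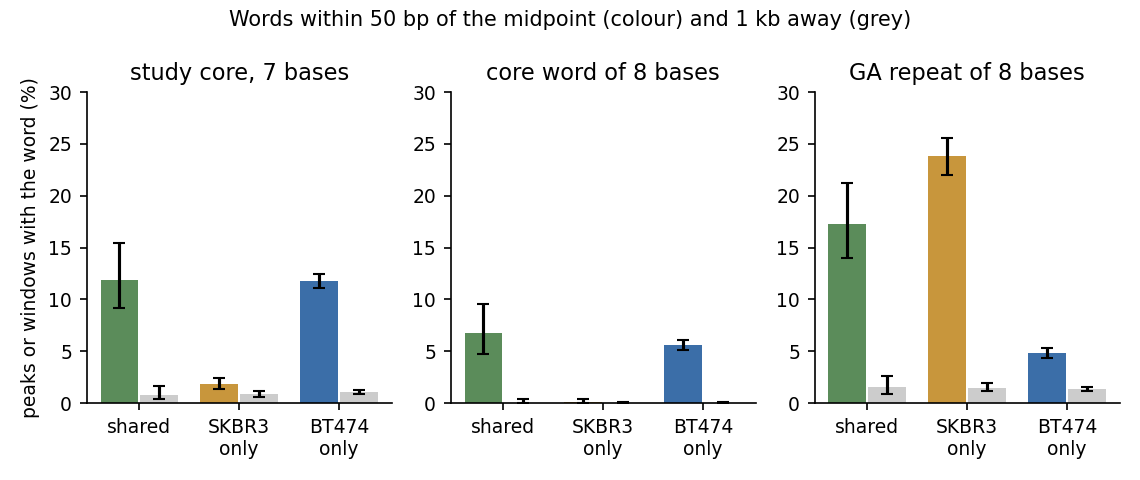
Percent of HER2 vehicle peaks with each word within 50 bp of the midpoint (coloured bars) and of windows 1 kb to either side (grey bars), by site class, with 95% Wilson intervals. The core reaches 11.9% at shared and 11.8% at BT474 only sites and 1.80% at SKBR3 only sites, while the GA repeat is highest, at 23.8%, at SKBR3 only sites.

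Shared sites were found again after EGF, and most SKBR3 only sites were not. The EGF lists, with 2520 peaks in SKBR3 and 29326 in BT474, were not used to define the classes. Of the 427 shared sites, 424 (99.3%, 98.0 to 99.8%) were in the BT474 EGF list and 245 (57.4%, 52.6 to 62.0%) in that of SKBR3, and 2 were in neither. Of the SKBR3 only sites, 93 (4.29%, 3.51 to 5.22%) were in the EGF list of their own line and 695 (32.0%, 30.1 to 34.0%) in that of BT474. A total of 1455 (67.1%) were in neither. Of the BT474 only sites, 7382 (90.8%, 90.1 to 91.4%) were in the EGF list of their own line and 1323 (16.3%, 15.5 to 17.1%) in that of SKBR3.

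A SKBR3 vehicle site was therefore found after EGF in the same line far more often when BT474 also had it before EGF. The BT474 EGF list covers 0.25% of the genome and that of SKBR3 0.0201%, so presence in the first is the weaker statement. Among BT474 peaks, those with the GA repeat were in the SKBR3 EGF list in 190 of 462 cases (41.1%, 36.7 to 45.7%), against 18.3% of peaks with the core and 16.9% of peaks with neither.

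**Figure D3:**
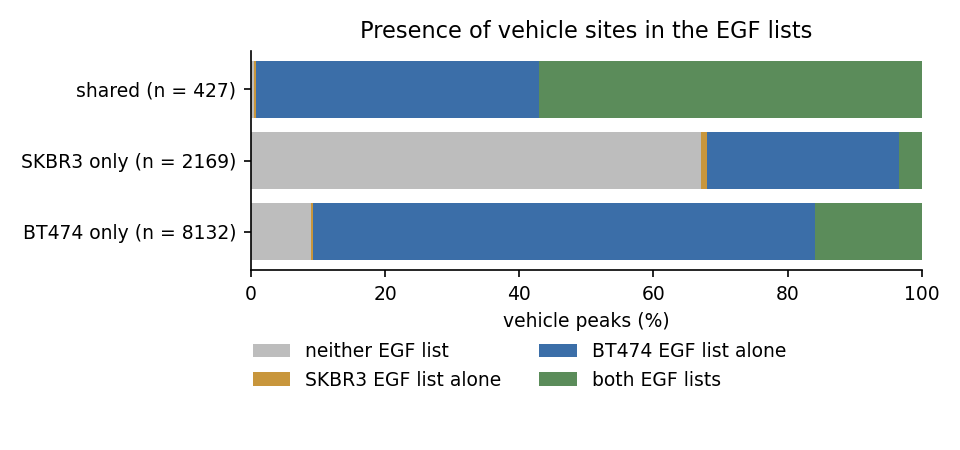
Percent of the vehicle peaks of each class (horizontal axis) that were in neither EGF list, in the list of a single line, or in both. Of the shared sites 57.1% are in both EGF lists, whereas 67.1% of SKBR3 only sites are in neither.

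The classes were alike in the kind of genomic feature they occupied, apart from exons. Promoters, taken as the 1 kb upstream of a start site, held 16 shared sites (3.75%, 2.32 to 6.0%) and 3.92% of SKBR3 only sites. They held 4.76% (4.32 to 5.24%) of BT474 only sites, and make up 4.22% of the sequenced genome. Exons held 4.45% of shared, 3.41% (2.73 to 4.26%) of SKBR3 only and 4.94% (4.49 to 5.44%) of BT474 only sites. They make up 4.66% of the genome, so SKBR3 only sites lay below both. Introns held 58.5%, 55.0% and 55.2% of the classes and 54.3% of the genome. Intergenic sequence held 33.3%, 37.7% and 35.1%, against 36.8% of the genome. The median distance to a start site was 14.3 kb for shared, 14.5 kb for SKBR3 only and 13.1 kb for BT474 only sites. Sites beyond 100 kb from any start were fewer among shared sites, with 12 (2.81%) against 147 SKBR3 only (6.78%) and 516 BT474 only sites (6.35%).

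Shared promoter sites of protein-coding genes were few. They were 7 sites at 8 genes. The site between KIAA0319L and NCDN, a neuronal gene read in the opposite direction, scored at percentile 84.8 in SKBR3 and 97.6 in BT474. The site 116 bp from the start of SNX16, which sorts endosomal cargo, was at percentile 99.9 in SKBR3 and 89.2 in BT474. The others were at ACTN2, a muscle alpha-actinin, RBM25, a splicing regulator, GOLM2, the adhesion gene NECTIN2, and MDFI, an inhibitor of myogenic transcription factors. Their SKBR3 percentiles ran from 32.2 to 82.3.

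Genes with a start site within 10 kb of a HER2 midpoint numbered 1421 in SKBR3, 2.23% of the 63827 annotated genes, and 4956 in BT474, 7.76%. A total of 408 genes, 0.639% of all, had a site in each list. They were 28.7% of the SKBR3 genes and 8.23% of the BT474 genes. Many more genes, 1013 in SKBR3 and 4548 in BT474, had a site in a single line.

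Sites inside genes followed gene length. Of the 20098 protein-coding genes, 5.60% held a SKBR3 midpoint in the body or the 10 kb upstream, 17.4% a BT474 midpoint and 1.19% a shared site. Of the 5235 genes under 10 kb, these shares were 1.53%, 4.99% and 0.344%. Of the 323 genes of 500 kb or more, they were 46.4%, 86.1% and 11.8%. Longer genes have more room for peaks, so the long-gene lists below are read beside these shares.

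**Figure D4:**
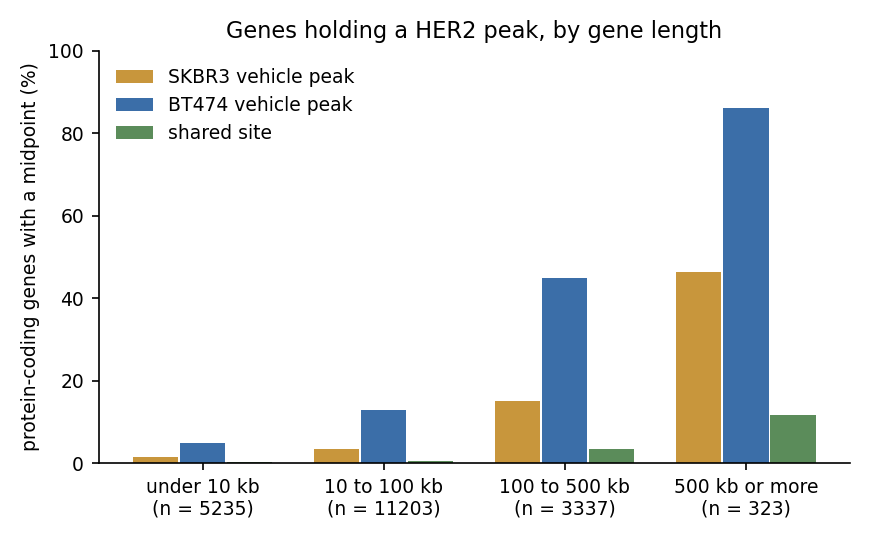
Percent of protein-coding genes whose body or 10 kb upstream holds a SKBR3 vehicle midpoint, a BT474 vehicle midpoint or a shared site (vertical axis), by gene length (horizontal axis). In each line the share is lowest below 10 kb and highest at 500 kb or more, 46.4% in SKBR3 and 86.1% in BT474.

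Genes of HER2 signalling held sites mainly in BT474, and none held a shared site. Over all protein-coding genes, 5.60% held a SKBR3 peak, 17.4% a BT474 peak and 1.19% a shared site, so the absence of a shared site in lists this short is close to that background. Of the 12 ERBB receptors and adaptors, 0 had a SKBR3 peak and 5 a BT474 peak. These were EGFR and the RAS exchange factor SOS1 with 3 peaks each, the neuregulin receptor ERBB4 and the adaptor GRB2 with 2 each, and ERBB3 with 1. Of the 11 EGF family ligands, 0 had a SKBR3 peak and 4 a BT474 peak, all of them neuregulins, with 4 peaks in NRG3 and 1 each in NRG1, NRG2 and NRG4. NRG1, NRG3 and ERBB4 are 1216, 1112 and 1163 kb long, within the class of which 86.1% held a BT474 peak. EGFR and SOS1 are 193 and 162 kb long, and 44.9% of genes of 100 to 500 kb held a BT474 peak.

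The counts of the other lists are also read beside those shares of 5.60% and 17.4%, and beside gene length. Of genes of 100 to 500 kb, 15.1% held a SKBR3 and 44.9% a BT474 peak, and of longer genes 46.4% and 86.1%. PRKCB, PRKCH, PRKCQ, ESR1 and TRPS1 fall in the first of these classes and PRKCA and MAPK10 in the second. Other genes with peaks, such as TFAP2A, are shorter. Among the 17 genes of the MAP kinase cascade, 1 had a SKBR3 peak, the RAF kinase gene BRAF, and 4 had a BT474 peak, among them MAPK8 and MAPK10, of the JNK family, and MAP3K13. Among the 11 PI3K pathway genes, 1 had a SKBR3 peak and 3 a BT474 peak, among them the catalytic subunit gene PIK3CB with 2. Of the 9 protein kinase C genes, 4 had SKBR3 and 6 BT474 peaks, and 3 had both. PRKCB and PRKCQ each held 1 SKBR3 and 2 BT474 peaks, PRKCA held 1 SKBR3 peak alone, and PRKCH held 4 BT474 peaks alone. None of the 9 genes tied to nuclear HER2 in earlier work, such as CCND1, PTGS2 and MYC, had a peak in either list. PTGS2, MYC, FOS and JUN are under 10 kb, and among such genes 1.53% held a SKBR3 and 4.99% a BT474 peak. All others but PGR, of 100.2 kb, are under 100 kb. Of genes of 10 to 100 kb, 3.51% held a SKBR3 and 13.0% a BT474 peak, so a count of 0 in a list this short is near the background. Of the 13 luminal transcription factors, ESR1, the estrogen receptor, had 1 peak in each line, and TFAP2A, GRHL2 and TRPS1 had peaks in BT474 alone.

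ERBB2 itself held no peak. ERBB2 and its 12 neighbours on 17q12, such as GRB7 and CDK12, held 0 peaks in either list. All but CDK12 and IKZF3 are under 100 kb, and of genes of 10 to 100 kb 3.51% held a SKBR3 and 13.0% a BT474 peak, so a count of 0 is near the background here too. H3K4me1 islands covered 97.6% and 97.2% of ERBB2 in the SKBR3 replicates and 100.0% in both BT474 replicates. The authors had removed regions with a high signal in the input DNA of each line, and the part of that filter at this locus was not tested.

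Very long genes of adhesion and synapse often held sites of each line. Of 22 such genes, all had a BT474 peak, 16 had a SKBR3 peak and 2 had a shared site, among them LRP1B, a lipoprotein receptor family member with 1 SKBR3 and 8 BT474 peaks. They were chosen for their length, and the shares of all genes of 500 kb or more, 46.4% and 86.1%, stand beside them. Among single genes, MACROD2 held 7 SKBR3 and 12 BT474 peaks with none shared, and CTNNA3, an alpha-catenin, held 3 and 10. No gene body held more than 2 shared sites. CDH18, a cadherin, and GPHN, the scaffold of inhibitory synapses, held 2 each, as did the overlapping GPR141 and ENSG00000290149, and ENSG00000283563. These came first in symbol order, and others tied at 2 included GRM8, KIF16B and NPAS3.

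MACROD2 was among the 2 genes with the most peaks of a single line in both lines, and other genes held them mainly or only in 1 line. GRM7, a metabotropic glutamate receptor gene of 972 kb on chromosome 3, held 9 SKBR3 only peaks and 0 BT474 peaks. ENSG00000285218, LRMDA and AUTS2 held 6, 6 and 5 SKBR3 only peaks, and 0, 3 and 2 BT474 only peaks. In BT474, CTNNA3 and SDK1 held 10 BT474 only and 3 SKBR3 only peaks each. DLGAP1, a postsynaptic scaffold gene, and ENSG00000250349 held 9 BT474 only and 0 SKBR3 only peaks each. Others tied at 9 included HDAC9, PTPRN2 and RBFOX1, with 3, 3 and 2 SKBR3 only peaks. In the 1 Mb of chromosome 3 from 7000001 to 8000000, which holds most of GRM7, there were 8 SKBR3 and 0 BT474 peaks, and H3K4me1 reads per 1000000 were 7.04 and 5.35 in SKBR3 and 72.2 and 74.3 in BT474.

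H3K4me1 was present at similar fractions of the classes. Islands of SKBR3 overlapped 15.6% ± 0.497 of shared and 15.6% ± 0.359 of SKBR3 only sites (SD, n = 2 replicates), and 13.3% ± 0.165 of BT474 only sites. Islands of BT474 overlapped 12.5% ± 0.497 of shared, 12.2% ± 0.554 of SKBR3 only and 13.3% ± 0.513 of BT474 only sites. The islands covered 11.2% and 11.3% of the sequenced genome in SKBR3 and 10.9% and 10.4% in BT474. For shared as for SKBR3 only sites the overlap was larger with islands of SKBR3 than with those of BT474 by more than the spread between replicates. The gap was therefore not particular to SKBR3 only sites. For BT474 only sites the islands of each line gave the same mean.

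Some markers of luminal cells differed between the lines in H3K4me1, and others differed little. PGR, the progesterone receptor gene, was covered to 88.6% and 86.6% by islands of BT474 and to 2.39% and 3.54% by those of SKBR3. GATA3, a luminal transcription factor gene, was covered to 55.8% and 53.2% in BT474 and to 0% in both SKBR3 replicates. KRT8, a luminal keratin gene, was covered to 61.8 to 67.5% in every replicate, and KRT18 to 17.1% and 0% in SKBR3 and 51.8% and 61.7% in BT474. ESR1 was covered to 19.7% and 18.8% in SKBR3 and 26.3% and 27.3% in BT474. FOXA1 was covered in 1 BT474 replicate alone, to 25.2%. VIM, the vimentin gene, was covered to 10.7% and 12.8% in SKBR3 and 44.5% and 23.1% in BT474. The leukocyte gene PTPRC was covered to 44% and 41% in SKBR3 and 17.6% and 19.8% in BT474.

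The 2 lists were spread unevenly over chromosome arms. The shares had separate intervals on 15 of 42 arms, and overlapped on 27. SKBR3 had the larger share on 5 of them. Arm 20q held 117 SKBR3 peaks (4.51%, 3.77 to 5.37%) and 61 BT474 peaks (0.713%, 0.555 to 0.914%), a ratio of 6.32, followed by 20p with 2.38, 7q with 1.99, 1q with 1.67 and 7p with 1.59. BT474 had the larger share on 10 arms. Arms 4p and 8p held 2 SKBR3 peaks each, against 133 and 93 in BT474. Arms 18p, 18q and 22q had SKBR3 to BT474 ratios of 0.264, 0.266 and 0.278. The other 5 were 2q, 4q, 8q, 15q and 16q, with ratios from 0.417 to 0.659.

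**Figure D5:**
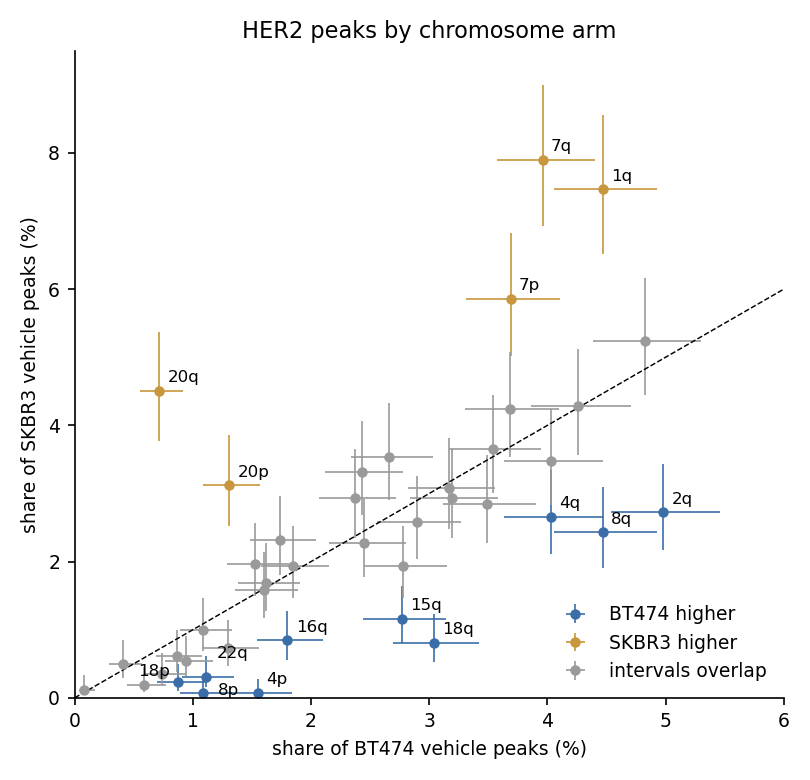
Share of the SKBR3 vehicle list (vertical axis) against the share of the BT474 vehicle list (horizontal axis) for each chromosome arm with at least 10 peaks in all, with 95% Wilson intervals and the line of equal shares dashed. The 15 named arms have separate intervals, with 20q farthest above the line at 4.51% against 0.713%.

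On most of the 15 arms with separate intervals, H3K4me1 reads differed in the same direction as HER2 peaks. In 13 of the 15 arms the line with the larger share of HER2 peaks also had the larger share of H3K4me1 reads. The exceptions were 20q, where the H3K4me1 ratio of SKBR3 to BT474 was 0.912, and 8q, where it was 1.77. On the 27 arms with overlapping intervals the directions were mixed. Arm 10q had ratios of 1.33 for peaks and 1.35 for reads, and 5p had 1.23 and 0.512. Across the 39 arms with at least 5 peaks in each list, the log2 ratios had a Pearson r of 0.426 and a Spearman rho of 0.464, given as a description. The part of DNA copy number in either assay was not tested.

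On 20q, 4 stretches of 1 Mb were among the 12 with the most SKBR3 peaks, and BT474 had 0 to 4 peaks in them. In the 1 Mb from 54000001 to 55000000 there were 14 SKBR3 and 0 BT474 peaks, and H3K4me1 reads per 1000000 were 274 and 316 in SKBR3 and 319 and 321 in BT474. From 56000001 to 57000000 there were 9 and 0 peaks, and H3K4me1 reads were higher in BT474, with 5385 and 4786 per 1000000 against 2317 and 2526. From 57000001 to 58000000 there were 8 SKBR3 peaks and 1 BT474 peak, and from 59000001 to 60000000 there were 8 and 4, of which 1 site was shared. The removal of regions with a high input signal was made separately for each line, and its part in these counts was not tested. Few 20q sites were shared, 7 of the 117 SKBR3 peaks (5.98%, 2.93 to 11.8%). On 19q, by contrast, 19 of 60 SKBR3 peaks were shared (31.7%, 21.3 to 44.2%), and on 18q 8 of 21 (38.1%, 20.8 to 59.1%).

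Peaks of each line were spread over much of the genome. Of the 3053 bins of 1 Mb, 1359 held a SKBR3 peak, 2571 a BT474 peak and 377 a shared site. There were 80 bins with SKBR3 peaks alone and 1292 with BT474 peaks alone. The 20 densest bins held 6.28% of the SKBR3 peaks and 2.71% of the BT474 peaks. These counts follow the lengths of the lists in part. With the BT474 list limited to its 2596 highest scores, a setting chosen after seeing the data, 1559 bins held a BT474 peak and the 20 densest held 4.16% of them.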

How the data were processed

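HER2 ChIP-exo peaks of SKBR3 and BT474 cells (1 list each for vehicle and EGF) and H3K4me1 ChIP-seq islands (2 replicates per line) were used, with groups taken from the sample titles. The input samples were not used here. According to the published methods, the authors aligned reads with bowtie2, called HER2 peaks with MACS2 and islands with SICER against input of the same line, and removed blacklisted regions and regions of high input signal. The submitters' processing notes instead name BWA 0.5.9, MACS 1.4.1 and SICER 1.1. HER2 peaks carry a deposited score in steps of 0.500 on an unstated scale, which was not transformed. H3K4me1 islands carry a deposited read count without scaling. Islands held, in units of 1000000 reads, 15.1 to 18.7 per replicate. A small or shallow HER2 library can lose weak peaks, and its depth is unknown.

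Peaks were shared at an overlap of 1 bp or more. Midpoints stood for summits. GRCh37, the build of the files, and GENCODE release 44 lifted to GRCh37 gave sequence and genes. Features were assigned in the order promoter, exon, intron and intergenic. Arms were split at the longest gap of at least 1 Mb, without chromosome Y. Words were counted on both strands, and overlapping matches of the core and its 8-base form were counted in both. Genes named were those at the 10 highest shared sites, the 5 highest sites of each line, shared promoters, the 5 gene bodies with the most sites of each class, and the listed pathways. Ties among gene bodies were taken in symbol order, and some tied genes beyond the 5 are also named. The members, lists and tests were chosen with earlier results of these data known. Analyses used Python 3.11.15, pandas 2.3.3, scipy 1.17.1 and pysam 0.24.0. Overlap and word counts were checked on simulated data. Some genes and sequences that these rules select are not reported here.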

Additional observations from a re-analysis of the deposited data

How the results depend on the processing

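All comparisons rest on 1 library per condition, so only counting error and the choices below are known, and depth limits the weak peaks most. Of 102 alternatives, 64 stayed, 36 moved, 2 lost a call and 0 reversed. Staying meant a value within the interval, within the SD of the replicate mean for H3K4me1, within 1.5 times the value for counts, or a kept call for arms. The settings that drop an H3K4me1 replicate could only stay, since each of 2 replicates lies within the SD of their mean. They are therefore no check. No paired analysis was possible because the results come from no test and each HER2 condition had 1 library. Repeat-masked shares were not run, since the reference used here carries no masking. With the upper 50% of each list by score, 14.9% of SKBR3 and 4.53% of BT474 peaks were shared, and with equal numbers 9.71% and 9.67%. With promoters of 5 kb the promoter shares were 18.3% of shared, 16.4% of SKBR3 only and 16.9% of BT474 only sites, and with protein-coding genes alone 1.64%, 2.58% and 2.9%. The upper 50% gave 3.17% for SKBR3 only promoters. Searched over the whole peak, the core was at 27.4%, 4.70% and 18.9% of the classes and GAGAGAGA at 23.2%, 36.4% and 7.78%, while the upper 50% gave 13.2% for the core in BT474 only and 21.5% for GAGAGAGA in SKBR3 only sites. The GAGAGAGA settings were chosen after seeing the data. When the midpoint had to lie in an island, the H3K4me1 shares were 14.6% (SKBR3) and 11.6% (BT474) of shared sites, 14.7% of SKBR3 only and 12.2% of BT474 only sites, in islands of their own line. The upper 50% gave 10.8% of shared sites in BT474 islands, 19.2% of SKBR3 only and 13.9% of BT474 only sites. Without either replicate of H3K4me1 these shares ran from 15.2 to 15.9% and from 12.2 to 12.9% for shared, from 15.4 to 15.9% for SKBR3 only and from 12.9 to 13.6% for BT474 only sites. In the upper 50%, the SKBR3 EGF list held 67.0% of shared, 6.52% of SKBR3 only and 24.4% of BT474 only sites, and the BT474 EGF list 96.8% of BT474 only sites. Genes with a site in both lines numbered 787 by gene body, 217 with protein-coding genes alone and 205 with equal numbers. Genes of a single line numbered 417 (SKBR3) and 2090 (BT474) when noncoding genes were dropped, and 1307 for BT474 with equal numbers. With equal numbers, 13 of the 15 arms kept their call, and 7p (ratio 1.23) and 16q (0.564) lost it. The causes were not tested.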
